A study of Mus musculus with 3 samples.

Results

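The cells described here are the basophils of mouse peripheral blood, found in 3 single-cell RNA libraries. A cell barcode with 200 or more detected genes was called a basophil when its UMIs (unique molecular identifiers, each counting 1 captured molecule) of Cpa3, Mcpt8, Prss34, Ms4a2, Fcer1a and Cd200r3 summed to 4 or more. It could hold at most 2 UMIs of Cd79a, Cd79b and Ms4a1 together, at most 1 of Cd3e, Cd3d and Cd3g together, and at most 1 of Csf1r, which limits B cells, T cells and monocytes. The rule found 85 basophils among 22688 cells (0.375%), with 62, 9 and 14 of them in replicates 1, 2 and 3. The remaining 22603 cells are called all other cells.

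The study behind the series concerns splenic macrophages in the healing of the infarcted heart, and these libraries are its blood leukocytes. All 3 libraries form 1 untreated group of male mice aged 8, 9 and 10 weeks, 1 library for each age, so no condition or age could be compared. No strain is named, and the labels do not say whether the libraries came from separate animals; p-values then measure the spread between these samples, which may be technical. Cells were sorted after red cell lysis and nuclear staining, fixed, and measured with the 10x Genomics fixed-RNA kit, in which gene-specific probes are counted in place of whole transcripts.

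Basophils are circulating granulocytes that carry the high-affinity IgE receptor on their surface. Crosslinking of that receptor by antigen releases histamine and proteases from granules and starts the synthesis of lipid mediators and of cytokines, with interleukin-4 the best known. In mice, basophils take part in allergic inflammation and in immunity to worms and ticks, depend on the transcription factor GATA-2, and expand in response to interleukin-3.

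The libraries held 45718031, 19591648 and 23443660 UMIs, and the basophils in them 243895, 28058 and 38068 UMIs, 310021 in all. The median basophil had 3464, 2671 and 3218 UMIs and 1945, 1648 and 1770 genes in replicates 1, 2 and 3. Each pair of libraries shared 48 to 101 cell barcodes, of which 1 belonged to a basophil. The libraries differed in residual red cell RNA: haemoglobin genes took 0.0139%, 0.695% and 0.898% of the basophils' UMIs in replicates 1, 2 and 3. The value of replicate 3 leaned on 1 basophil with 264 haemoglobin UMIs. Median haemoglobin UMIs per basophil were 0, 22 and 6, and the shares in B cells were 0.116%, 2.9% and 0.632%, both highest in replicate 2. Levels are given in CPM, the usual scaling of a gene's UMIs by all UMIs of the class in that library, so that 1 UMI in basophils is worth 4.1, 35.64 and 26.27 CPM in replicates 1, 2 and 3. Replicate 1 held most basophils and is therefore the most precise.

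Basophils made up 0.563% of cells in replicate 1 (exact 95% interval 0.432% to 0.722%), 0.178% in replicate 2 (0.0815% to 0.338%) and 0.211% in replicate 3 (0.115% to 0.354%). The mean share was 0.318% ± 0.214 (SD, n = 3). The interval of replicate 1 lay above those of replicates 2 and 3, which overlapped. B cells took 28.4%, 55.0% and 63.0% of cells in the same libraries, and every other class takes its share of what is left; the part of this in the basophil share was not tested. Intervals cover counting error only.

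The transcripts that chose the cells are described without a test. Ms4a2, the beta chain of the IgE receptor, was at 1837, 2210 and 1970 CPM in the basophils of replicates 1, 2 and 3, against 1.19, 0.0539 and 0.087 CPM in all other cells. Fcer1a, its IgE-binding alpha chain, was at 1476, 1925 and 1208 CPM in basophils, against 0.793, 0.0539 and 0.087 CPM in all other cells. Cd200r3, an activating receptor of the CD200 receptor family, was at 1915, 2281 and 1524 CPM in basophils, against 1.498, 0 and 0 CPM in all other cells. These 3 were high in every library, and 84, 74 and 81 of the 85 cells held at least 1 UMI of Ms4a2, Fcer1a and Cd200r3.

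The 3 granule protease genes of the rule were less even. Cpa3, a carboxypeptidase shared with mast cells, was at 545.3, 570.2 and 420.3 CPM in basophils, against 0.529, 0.0539 and 0.0435 CPM in all other cells, and 56 of 85 basophils held a UMI. Mcpt8, a protease used as a defining marker of mouse basophils, was at 512.5, 1105 and 1497 CPM, against 0.507, 0.377 and 0.174 CPM in all other cells, and 48 basophils held a UMI. Its levels in replicates 2 and 3 leaned on a few cells. In replicate 2, 1 cell held 19 Mcpt8 UMIs, and in replicate 3, 2 cells held 17 and 14. Prss34, another basophil protease, rested on 22 UMIs in 4 cells, at 36.9, 463.3 and 0 CPM in basophils, against 0.22, 0.647 and 0.652 CPM in all other cells. Of these UMIs, 5 lay in 1 cell of replicate 2 that also carried NK cell transcripts. Basophils held 37.3% of all Prss34 UMIs, against 86.4% for Cpa3 and 86.2% for Mcpt8.

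The gate left a gap on its lower side. The 85 sums ran from 4 to 72 UMIs with a median of 22, and 75 cells were at 10 or more. Among cells that met the limits, the single cell at a sum of 4 had no Gata2 but held Hdc, the single cell at 5 had 7 Gata2 UMIs, no cell was at 3, and the 2 cells at 2 and the 6 at 1 had no Gata2. The limits removed 9 further cells with a sum of 4 or more, 7 of them over the B cell limit and 2 over the T cell limit, with a median of 6586 UMIs. These removed cells held most of the Ms4a2 left outside the gate: of its UMIs, 585 lay in basophils, 48 in the 9 removed cells and 9 in all the remaining cells.

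Gata2, the marker that took no part in the rule, was high in the same cells. It stood at 2042, 1889 and 2443 CPM in basophils, against 3.09, 4.58 and 4.74 CPM in all other cells, with no overlap (log2 fold 9.00, SE 0.31, edgeR adjusted p = 7.85e-176). Of the 85 cells, 83 held Gata2, 82 held Hdc and 81 held Ms4a2, Gata2 and Hdc together. Outside the gate, 32 cells had 3 or more Gata2 UMIs: 25 of them carried 4 to 89 UMIs of the platelet gene Pf4, 5 were the cells removed by the limits, and 2 were neither.

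Several defining markers of neighbouring cell types were lacking. Of 7 mast cell markers, Mcpt4, Tpsb2, Tpsab1, Mrgprb2 and Mcpt9 had no UMI in basophils, and the list summed to 0 to 45.1 CPM in basophils and 5.48 to 27.39 CPM in all other cells. Kit, the stem cell factor receptor of mast cells, had 7 UMIs, all in 1 cell of replicate 1. Cma1, the remaining marker, was found in 3 basophils (3.53%, against 0.387% of B cells). All 3 were cells of replicate 1 that also carried NK cell transcripts. Of the 6 eosinophil markers in the matrices, the granule genes Epx, Prg2 and Ear6 and the receptor Il5ra had no UMI, while Siglecf and Ccr3 were higher in basophils, so that the list summed to 213.8 to 446.6 CPM in basophils and 25.08 to 39.71 CPM in all other cells. All 7 dendritic cell markers were at 0. Of 7 platelet markers, Pf4, Treml1 and Tubb1 were at 0, Ppbp, Gp1bb and Gp9 were found in 4, 2 and 1 basophils, and Itga2b was higher, so that the list summed to 828.2 to 1140 CPM in basophils and 178.9 to 1034 CPM in all other cells. A count of 0 over the 310021 basophil UMIs allows up to 3 UMIs.

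The promoters of the 6 genes of the gate are printed because these genes define the cells and because 5 of them hold a match to the motif bound by GATA factors. Each line runs 5′ to 3′ on the gene's strand from 250 bases before to 50 bases after the annotated start, from RefSeq on GRCm38.p6. Capitals mark the motif on either strand: GATA with an A or a T before it and an A or a G after it. The genes are Cpa3 (ENSMUSG00000001865, chr3:20242132-20242431, minus strand), Mcpt8 (ENSMUSG00000022157, chr14:56085148-56085447, minus strand), Prss34 (ENSMUSG00000056399, chr17:25298144-25298443, plus strand), Ms4a2 (ENSMUSG00000024680, chr19:11623670-11623969, minus strand), Fcer1a (ENSMUSG00000005339, chr1:173227180-173227479, minus strand) and Cd200r3 (ENSMUSG00000036172, chr16:44943428-44943727, plus strand).
Cpa3: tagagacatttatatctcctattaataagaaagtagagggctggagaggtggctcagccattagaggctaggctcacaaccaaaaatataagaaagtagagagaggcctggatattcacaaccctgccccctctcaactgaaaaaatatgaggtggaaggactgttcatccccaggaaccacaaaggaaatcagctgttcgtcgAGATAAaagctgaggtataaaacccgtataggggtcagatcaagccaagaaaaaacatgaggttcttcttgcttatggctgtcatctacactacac
Mcpt8: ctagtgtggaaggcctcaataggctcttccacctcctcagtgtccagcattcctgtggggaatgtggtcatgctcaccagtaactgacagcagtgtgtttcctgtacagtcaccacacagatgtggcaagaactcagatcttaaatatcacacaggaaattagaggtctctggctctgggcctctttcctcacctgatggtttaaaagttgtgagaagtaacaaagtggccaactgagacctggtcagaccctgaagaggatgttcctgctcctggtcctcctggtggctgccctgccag
Prss34: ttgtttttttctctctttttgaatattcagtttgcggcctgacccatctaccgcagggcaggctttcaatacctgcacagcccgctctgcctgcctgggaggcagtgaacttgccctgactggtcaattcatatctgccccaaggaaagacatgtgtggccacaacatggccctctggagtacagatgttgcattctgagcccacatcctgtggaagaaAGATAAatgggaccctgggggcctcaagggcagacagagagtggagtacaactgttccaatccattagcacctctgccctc
Ms4a2: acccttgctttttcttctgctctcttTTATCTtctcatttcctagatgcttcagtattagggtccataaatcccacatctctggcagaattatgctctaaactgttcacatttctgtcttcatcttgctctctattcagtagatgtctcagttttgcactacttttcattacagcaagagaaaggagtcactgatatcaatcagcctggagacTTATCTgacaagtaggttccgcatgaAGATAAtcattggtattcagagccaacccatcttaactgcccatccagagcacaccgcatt
Fcer1a: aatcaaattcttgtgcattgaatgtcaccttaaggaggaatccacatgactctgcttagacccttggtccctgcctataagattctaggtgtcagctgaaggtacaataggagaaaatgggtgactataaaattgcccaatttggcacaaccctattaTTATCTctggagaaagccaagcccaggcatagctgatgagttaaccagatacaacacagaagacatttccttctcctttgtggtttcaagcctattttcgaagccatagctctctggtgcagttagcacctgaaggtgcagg
Cd200r3: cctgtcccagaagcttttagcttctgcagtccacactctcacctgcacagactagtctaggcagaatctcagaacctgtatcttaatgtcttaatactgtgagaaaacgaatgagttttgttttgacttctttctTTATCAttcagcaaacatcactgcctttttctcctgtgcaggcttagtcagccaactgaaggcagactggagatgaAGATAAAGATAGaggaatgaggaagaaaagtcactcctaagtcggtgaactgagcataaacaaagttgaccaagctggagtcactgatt
Counted from the start at 0, the first base of the match was at -46 in Cpa3, -31 in Prss34, -224, -37 and -11 in Ms4a2, -92 in Fcer1a, and -115, -39 and -33 in Cd200r3, where the last pair lie side by side. Mcpt8 held none. Of all 32851 promoters in the table, 29.8% held a match. Among genes tested below, 6084 matched a promoter and 17.9% of these held one, as did 20.4% of genes higher and 21.2% of genes lower in basophils, so the motif did not set the genes higher in basophils apart. Il6 held 1 match at -55, Hdc at -221, the first start of Hgf at -34, and the 2 starts of Il4 at -80 and 14. The second start of Hgf and both starts of Gata2 held none. A match describes letters in this window and shows no binding.

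To ask what else distinguishes these cells, UMIs were summed per library over basophils and over all other cells and compared with edgeR, with the library as a block. The genes of the rule were left out of all counts. Since the cells were chosen by their transcripts, an adjusted p says how steady a difference was over the 3 libraries, not that such cells exist. The test covered 7528 genes and called 25.2% of them, 865 (11.5%) being higher and 1032 (13.7%) lower in basophils at an adjusted p of 0.05, and the median log2 fold of all genes was -0.16. Without replicate 1 the counts were 441 and 481. The shares of 11.5% higher and 13.7% lower are the background for each list counted below against all other cells. Among the 357 tested genes under 20 CPM in all other cells, which could be tested only through their basophil level, 218 were higher, and among the 1081 under 20 CPM in basophils 545 were lower, so the counts below describe the genes tested and not whole gene lists.

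**Figure D1:**
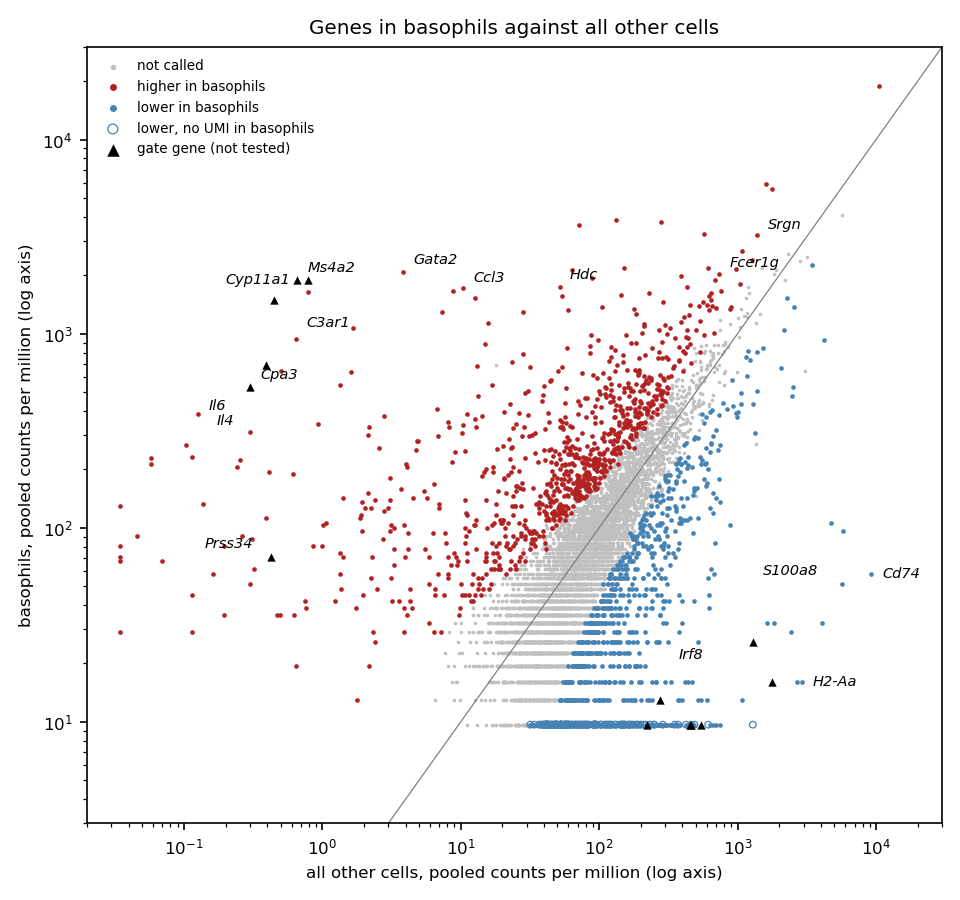
Each point is a gene tested in basophils (vertical axis) against all other cells (horizontal axis), both in CPM pooled over the 3 libraries on log axes; levels under 3 UMIs over a group are drawn at 3 UMIs, and the diagonal marks equal levels. Gata2, Il4, Il6, Ccl3, Hdc, C3ar1 and Cyp11a1 lie far above the diagonal beside the genes of the gate (triangles), and Cd74, H2-Aa and S100a8 far below it.

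Most granule content genes that could be tested were higher in basophils. Of 7 tested, 6 were higher and none lower, with a median log2 fold of 1.41. Besides the 3 genes of the gate, 5 more were too low to test. Of these, Prg2, Tpsb2, Tpsab1 and Mcpt4 had no UMI in basophils. Hdc, the enzyme that makes histamine, was at 1566, 2067 and 2574 CPM in basophils, against 65.29, 45.12 and 30.92 CPM in all other cells (log2 fold 5.41, SE 0.27, edgeR adjusted p = 1.83e-88). Srgn, the proteoglycan core that binds granule proteases and histamine, was at 3137, 2780 and 4019 CPM in basophils, against 1417, 1344 and 1373 CPM in all other cells (log2 fold 1.20, SE 0.24, edgeR adjusted p = 4.00e-06). Neither gene's groups overlapped.

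Granzyme genes went with a few cells. Gzmb, a granzyme of cytotoxic cells that mouse basophils are also known to make, was singled out after its values were seen: it stood at 319.8, 71.28 and 0 CPM in basophils, against 90.08, 66.58 and 21.14 CPM in all other cells (log2 fold 1.47, SE 0.36, edgeR adjusted p = 0.000307). Of its 80 UMIs, 60 lay in 1 cell and 18 in 6 cells that also carried NK cell transcripts. With these cells left out, a choice made after seeing the data, the log2 fold of Gzmb was -3.26 (edgeR adjusted p = 0.00161), and granule contents counted 5 genes higher and 2 lower. The 7 NK cell markers summed to 0 to 2709 CPM in basophils and 353.1 to 1336 CPM in all other cells, and none passed the test.

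Among the genes of granule release, 7 of 15 tested were higher in basophils and 2 lower, with a median log2 fold of 0.91. Cd63, the granule membrane protein that reaches the surface when basophils degranulate, was at 1074, 1283 and 1366 CPM in basophils, against 20.34, 11.64 and 10.26 CPM in all other cells (log2 fold 6.41, SE 0.28, edgeR adjusted p = 5.25e-115). Stx3, a membrane fusion syntaxin, was at 278.8, 249.5 and 315.2 CPM in basophils, against 5.95, 5.66 and 2.39 CPM in all other cells (log2 fold 5.91, SE 0.48, edgeR adjusted p = 3.86e-32). Rab27a, a small GTPase of secretory granules, was higher too (log2 fold 1.99, SE 0.31, edgeR adjusted p = 1.76e-09). On the other side, Stx11 (log2 fold -1.88, SE 0.61, edgeR adjusted p = 0.00992) and the lysosomal Lamp1 (log2 fold -1.68, SE 0.47, edgeR adjusted p = 0.00224) were lower in basophils, and both missed the threshold without replicate 1.

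The IgE receptor's signalling genes split. Of 29 tested, 9 were higher and 11 lower in basophils, and their median log2 fold of -0.22 was near that of all genes. Fcer1g, the signalling gamma chain of this and other Fc receptors, was at 1980, 2067 and 2417 CPM in basophils, against 939.4, 584.5 and 457.5 CPM in all other cells (log2 fold 1.70, SE 0.24, edgeR adjusted p = 2.71e-11). The adaptor Gab2 was at 492, 356.4 and 604.2 CPM in basophils, against 37.33, 23.77 and 17.22 CPM in all other cells (log2 fold 4.17, SE 0.31, edgeR adjusted p = 2.43e-38). The adaptor Lat2 was higher as well (log2 fold 2.82, SE 0.25, edgeR adjusted p = 2.83e-28).

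The lower members included kinases and adaptors that other leukocytes use. Fgr, a Src-family kinase, had 1 UMI in basophils, and its pooled level was 84.3 times higher in all other cells (exact 95% interval 15.1 to 3330). The adaptor Grap2 had 4 UMIs (log2 fold -4.88, SE 0.51, edgeR adjusted p = 8.46e-20). Syk, the kinase that the gamma chain recruits, was at 430.5, 320.8 and 525.4 CPM in basophils, against 816.6, 1142 and 1485 CPM in all other cells (log2 fold -1.32, SE 0.26, edgeR adjusted p = 4.1e-06). With B cells left out of the other cells, its log2 fold was -0.04 (edgeR adjusted p = 0.941; -1.79 to -0.50 with adjusted p up to 0.0205 under the other alternatives).

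**Figure D2:**
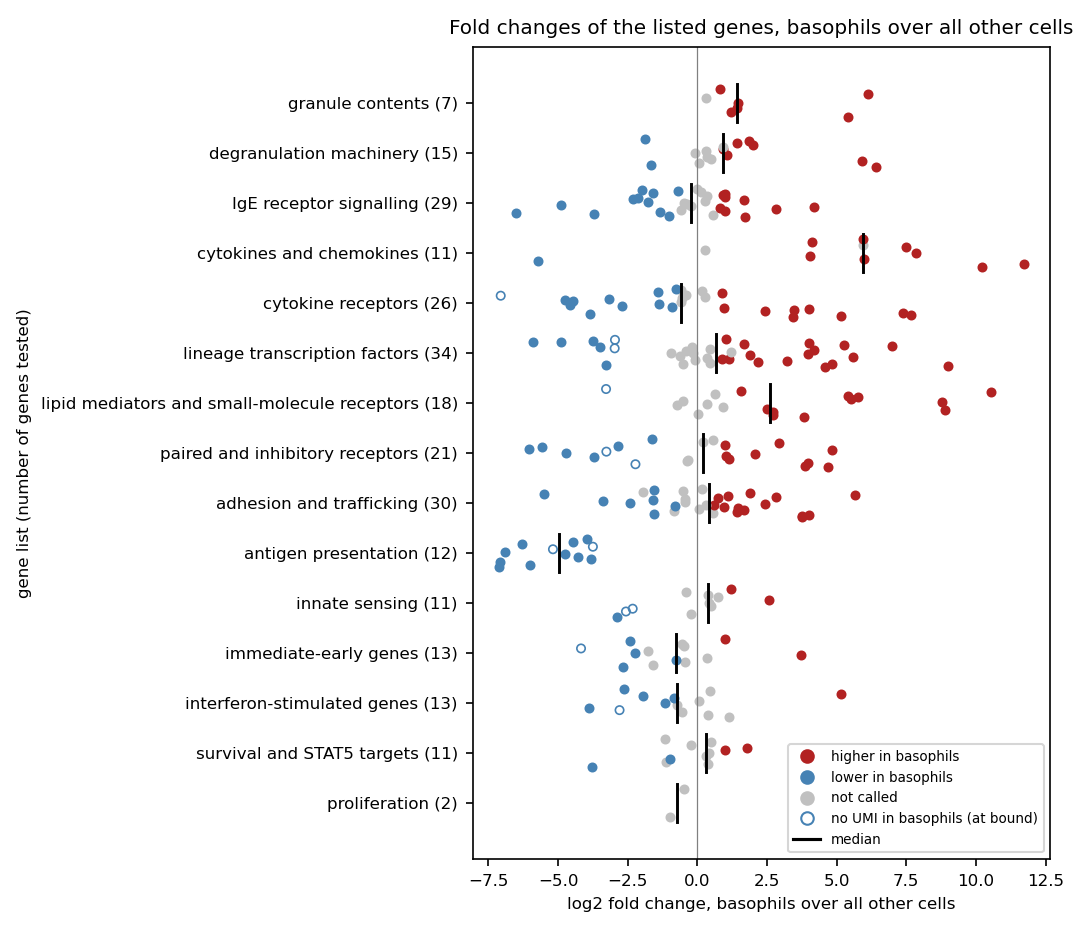
Log2 fold of basophils over all other cells (horizontal axis) for each tested gene of 15 lists (rows, with the number of genes tested); red points were higher, blue lower and grey neither, open points had no UMI in basophils and stand at the bound that 3 UMIs allow, and black bars are medians. Cytokines and lipid mediator genes lie mostly to the right and all 12 antigen presentation genes to the left, while IgE receptor signalling and cytokine receptors spread to both sides.

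Cytokine genes were transcribed in untreated blood basophils. Il4, the type 2 cytokine, was at 287, 427.7 and 394 CPM in basophils, against 0.441, 0.216 and 0.087 CPM in all other cells (log2 fold 10.23, SE 0.59, edgeR adjusted p = 1.11e-64). Il6 was at 315.7, 605.9 and 656.7 CPM in basophils, against 0.176, 0.108 and 0.0435 CPM in all other cells (log2 fold 11.73, SE 0.50, edgeR adjusted p = 2.53e-115). Its levels in replicates 2 and 3 leaned on 1 cell each, with 11 and 12 Il6 UMIs. The 85 basophils held 97 of the 123 Il4 UMIs of all cells (78.9%) and 119 of the 130 Il6 UMIs (91.5%), while the cells removed by the limits held 6 and 4 more. No library of all other cells came near the basophil level of either gene.

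Il4 was found in 50 of 85 basophils (58.8%, exact 95% interval 47.6% to 69.4%) and in 0.0496% of B cells. Il6 was found in 56 basophils (65.9%, 54.8% to 75.8%) and in 0.0298% of B cells. These intervals pool the cells of all 3 libraries, with 62 of the 85 from replicate 1. They cover counting error only and leave out the spread between libraries. With every cell thinned to 1500 UMIs, which left out 5 basophils, the Il4 shares were 35.0% of basophils and 0.041% of B cells, and the Il6 shares 42.5% and 0.0102%; median depths before thinning were 3440 UMIs in basophils and 3185 in B cells. At least 1 of these cytokines was found in 69 basophils and both in 37, and 7 cells had 5 or more UMIs of either. Il13, which basophils make together with Il4 after stimulation, had 3 UMIs in 3 cells, and Il5, Il3, Il9, Il10, Tnf, Csf2, Lif and Areg had none.

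Of the 11 cytokine and chemokine genes tested, 8 were higher and 1 lower in basophils, with a median log2 fold of 5.95. The list held 22 genes, and the other 11 were too low to test, 10 of them with no UMI in basophils. Il4, Il6, Ccl3, Hgf and Csf1 were under 20 CPM in all other cells and could be tested only through their basophil level. The count and median therefore describe the tested genes and not the list. Ccl3, a chemokine for monocytes and granulocytes, was at 1767, 2067 and 1182 CPM in basophils, against 13.62, 9.92 and 4.39 CPM in all other cells (log2 fold 7.50, SE 0.29, edgeR adjusted p = 2.5e-142). Hgf, hepatocyte growth factor, was at 1620, 1925 and 1707 CPM in basophils, against 11.83, 5.82 and 5.00 CPM in all other cells (log2 fold 7.85, SE 0.29, edgeR adjusted p = 3.05e-152). Csf1, the macrophage growth factor, was at 877.4, 891 and 919.4 CPM in basophils, against 17.96, 15.96 and 8.61 CPM in all other cells (log2 fold 5.97). Ccl9, a chemokine singled out after its values were seen, was at 3448, 4669 and 4150 CPM in basophils, against 85.01, 76.66 and 39.18 CPM in all other cells (log2 fold 5.93). The chemokine Ccl6 and the cytokine Osm were the other genes of the list that were higher. Il1b was lower, with 3 UMIs in basophils and a pooled level 46.7 times higher in all other cells (exact 95% interval 16.0 to 227).

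Ccl4, a chemokine related to Ccl3, varied more between libraries. It was at 537.1, 712.8 and 1629 CPM in basophils, against 26, 15.74 and 4.44 CPM in all other cells, so the groups did not overlap. Single cells weighed on these levels. In replicate 2, 4 basophils held Ccl4, and 17 of the UMIs lay in 1 cell that also carried NK cell transcripts. In replicate 3, 8 basophils held it, and 35 of the UMIs lay in 1 cell. The level was highest in basophils of replicate 3, where it was lowest in all other cells, and its log2 fold of 5.95 (SE 1.45) did not pass (edgeR adjusted p = 0.161; 0.473 to 3.04e-35 over the alternatives). A gene with fewer UMIs but steadier libraries, such as Il4, passed.

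Among cytokine receptors, 9 of 26 tested were higher and 11 lower in basophils, with a median log2 fold of -0.58. Il3ra, the alpha chain of the interleukin-3 receptor, was at 295.2, 178.2 and 394 CPM in basophils, against 30.26, 24.91 and 24.4 CPM in all other cells (log2 fold 3.43, SE 0.35, edgeR adjusted p = 3.1e-21). Its partner Csf2rb, the common beta chain, was at 2112, 2032 and 2259 CPM in basophils, against 75.56, 59.14 and 42.92 CPM in all other cells (log2 fold 5.15, SE 0.26, edgeR adjusted p = 2.39e-81). Csf2rb2, the interleukin-3 beta chain found in mice, was higher too (log2 fold 7.69, SE 0.29, edgeR adjusted p = 3.29e-149), but it is nearly identical to Csf2rb and probe counts could be split between the pair. Il1rl1, the receptor of interleukin-33, was at 307.5, 249.5 and 289 CPM in basophils, against 3.31, 0.647 and 1.00 CPM in all other cells (log2 fold 7.37, SE 0.56, edgeR adjusted p = 5.21e-38). Il18r1, a chain of the interleukin-18 receptor, followed them (log2 fold 3.48, SE 0.26, edgeR adjusted p = 5.84e-39).

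The lower receptors included Csf2ra, the alpha chain of the GM-CSF receptor (log2 fold -3.86), Il6ra (log2 fold -4.48) and Il9r (log2 fold -3.16). Csf3r, the granulocyte colony stimulating factor receptor, had no UMI in basophils against 1659, 953.8 and 832 CPM in all other cells, at least 133-fold lower. Il4ra was at 45.1, 71.28 and 0 CPM in basophils, against 259.6, 297.1 and 335.8 CPM in all other cells (log2 fold -2.70, SE 0.41, edgeR adjusted p = 7.14e-10). The signalling chain Il6st had 2 UMIs in basophils, and its pooled level was 27.8 times higher in all other cells (exact 95% interval 7.68 to 229). The basophils thus held Il4 and Il6 transcripts beside few transcripts of Il4ra and Il6st.

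Of 34 lineage transcription factors tested, drawn from several blood lineages, 16 were higher and 7 lower in basophils, with a median log2 fold of 0.67. Besides Gata2, Gfi1b was at 82, 178.2 and 183.9 CPM in basophils, against 0.705, 0.863 and 1.74 CPM in all other cells (log2 fold 6.99, SE 0.77, edgeR adjusted p = 5.36e-18). Tal1 was at 217.3, 106.9 and 210.2 CPM in basophils, against 2.64, 4.80 and 6.31 CPM in all other cells (log2 fold 5.58, SE 0.61, edgeR adjusted p = 2.51e-18). Gata1 had 24 UMIs in 17 basophils, at 77.9, 142.6 and 26.27 CPM, against 2.31, 4.53 and 4.35 CPM in all other cells (log2 fold 4.59, SE 0.79, edgeR adjusted p = 8.1e-08). Basophils held 65.8% of all Gata2 UMIs and 7.67% of all Gata1 UMIs.

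Cebpa, a myeloid factor whose product acts with GATA-2 in the basophil lineage, was at 1620, 962.3 and 1681 CPM in basophils, against 65.67, 44.47 and 37.79 CPM in all other cells (log2 fold 4.82, SE 0.27, edgeR adjusted p = 6.02e-71). Mitf, a factor that mast cells depend on, had 2 UMIs in basophils and was too low to test; its pooled ratio of basophils to all other cells was 0.91 (exact 95% interval 0.11 to 3.3). Klf4 and Irf4 had no UMI in basophils and were at least 7.76-fold and 7.82-fold lower. Pax5, the B cell factor, had 3 UMIs in basophils.

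Lipid mediator and small-molecule receptor genes leaned higher, with 11 of 18 tested higher and 1 lower and a median log2 fold of 2.60. C3ar1, the receptor of the complement fragment C3a, was at 938.9, 962.3 and 919.4 CPM in basophils, against 0.793, 0.431 and 0.522 CPM in all other cells (log2 fold 10.55, SE 0.35, edgeR adjusted p = 1.36e-191). Hrh4, the histamine receptor of blood cells, was at 561.7, 392 and 525.4 CPM in basophils, against 2.07, 0.809 and 0.304 CPM in all other cells (log2 fold 8.79, SE 0.39, edgeR adjusted p = 6.86e-111). Ptger3, a prostaglandin E2 receptor, was at 192.7, 178.2 and 210.2 CPM in basophils, against 0.463, 0.27 and 0.435 CPM in all other cells (log2 fold 8.88, SE 0.81, edgeR adjusted p = 9.67e-26). The basophil levels of C3ar1 and Ptger3 lay close together in the 3 libraries, and 83.9% of the C3ar1 UMIs in the 3 libraries lay in basophils.

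Alox5, the enzyme that starts leukotriene synthesis, was at 635.5, 748.4 and 630.5 CPM in basophils, against 65.95, 34.61 and 33.53 CPM in all other cells (log2 fold 3.84, SE 0.28, edgeR adjusted p = 1.58e-39). Ltc4s, which makes leukotriene C4, had 2 UMIs in basophils, a pooled ratio to all other cells of 12.2 (exact 95% interval 1.43 to 46.6). Ptgdr2, the prostaglandin D2 receptor known as CRTH2 and used to mark human basophils, had no UMI in these cells, nor did Hpgds. Fpr2, a formyl peptide receptor, had none either and was at least 9.70-fold lower than in all other cells.

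Surface receptors of the paired and Siglec families divided evenly, 9 of 21 tested being higher and 8 lower, with a median log2 fold of 0.22. Cd200r1, the inhibitory CD200 receptor, was at 393.6, 392 and 262.7 CPM in basophils, against 17.65, 11 and 9.74 CPM in all other cells (log2 fold 4.70, SE 0.36, edgeR adjusted p = 1.76e-36). Siglecf, a sialic acid receptor best known from eosinophils, was at 233.7, 142.6 and 394 CPM in basophils, against 10.56, 7.39 and 7.35 CPM in all other cells (log2 fold 4.84, SE 0.46, edgeR adjusted p = 3.83e-24). Lilrb4a, an inhibitory receptor, was higher as well (log2 fold 3.97, SE 0.25, edgeR adjusted p = 2.41e-50). Siglece and Cd200 had no UMI in basophils and were at least 9.62-fold and 4.66-fold lower.

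Adhesion and trafficking genes were higher in 14 and lower in 7 of 30 tested, with a median log2 fold of 0.43. Itga2, the integrin chain CD49b used to sort mouse basophils, was at 287, 320.8 and 262.7 CPM in basophils, against 28.1, 18.98 and 13.09 CPM in all other cells (log2 fold 3.76, SE 0.38, edgeR adjusted p = 7.16e-21). Itga2b, the integrin chain of platelets, was at 824.1, 1034 and 814.3 CPM in basophils, against 18.86, 113.8 and 91.55 CPM in all other cells (log2 fold 4.01, SE 0.45, edgeR adjusted p = 2.35e-06); of the other platelet markers Tubb1, Pf4 and Ppbp were lower, Gp9 did not pass, and Gp1bb and Treml1 were too low to test. With B cells left out of the other cells, Itga2b did not pass (log2 fold 3.35, edgeR adjusted p = 0.303; at most 0.0103 under the other alternatives). Ccr3, the eotaxin receptor, was higher (log2 fold 5.66, SE 0.86, edgeR adjusted p = 1.06e-09), as was Cxcr2 (log2 fold 1.91, SE 0.24, edgeR adjusted p = 1.5e-13). Ccr7, the lymph node homing receptor, had 4 UMIs in basophils (log2 fold -5.49, SE 0.48, edgeR adjusted p = 3.63e-28).

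All 12 antigen presentation genes that could be tested were lower in basophils, with a median log2 fold of -6.15, or -4.97 with the genes at 0 set at their bound. H2-Aa, a class II alpha chain, was at 8.2, 35.64 and 52.54 CPM in basophils, against 1893, 3938 and 4169 CPM in all other cells (log2 fold -7.13, SE 0.42, edgeR adjusted p = 2.64e-62). Cd74, the class II invariant chain, was at 24.6, 71.28 and 262.7 CPM in basophils, against 6064, 11100 and 14180 CPM in all other cells (log2 fold -6.91, SE 0.35, edgeR adjusted p = 5.95e-82). Ciita, the factor that switches class II genes on, had no UMI in basophils and was at least 36.4-fold lower. B cells, which express these genes, were the largest class pooled over the libraries, with 10080 of the 22603 other cells. With B cells left out, 8 genes were lower and none higher. Against monocytes 11 of 11 tested were lower. Against neutrophils 3 of 5 tested were lower, H2-Aa and H2-Ab1 did not pass, and the sums of the list overlapped, at 147.6 to 525.4 CPM in basophils and 351.3 to 517.7 CPM in neutrophils.

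Innate sensing, immediate early and interferon-stimulated genes were higher in 18.2%, 15.4% and 7.69% of those tested. They were lower in 27.3%, 38.5% and 46.2%. Of all genes tested, 11.5% were higher and 13.7% lower. Of 11 sensing genes tested, 2 were higher and 3 lower in basophils: Irak3, an inhibitor of Toll-like receptor signals, was at 250.1, 249.5 and 262.7 CPM, against 36.87, 49.43 and 52.32 CPM in all other cells (log2 fold 2.57, SE 0.33, edgeR adjusted p = 1.41e-13), and Tlr2, Tlr3, Tlr7, Tlr8, Tlr9 and Cd14 had no UMI. Of 13 immediate early genes, 2 were higher and 5 lower. Nr4a1 had no UMI in basophils and was at least 18.1-fold lower, and Fos had 4 UMIs. Cd69, an early activation marker, was at 65.6, 142.6 and 210.2 CPM in basophils, against 138.8, 135.3 and 158.7 CPM in all other cells, groups that overlapped (log2 fold -0.43, SE 0.38, edgeR adjusted p = 0.479). Cd69 was higher in basophils than in neutrophils (log2 fold 2.02, SE 0.49, edgeR adjusted p = 0.000799) and than in monocytes (log2 fold 3.36, SE 0.56, edgeR adjusted p = 1.58e-08). Only 17 of 85 basophils held a Cd69 UMI. The basophil with the most Il6, 12 UMIs, also had the most Cd69, 8 UMIs. It was the only basophil of replicate 3 with Cd69, so the level of that library rests on 1 cell.

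Of 13 interferon-stimulated genes tested, 1 was higher and 6 lower in basophils. The higher gene was Ifitm1, a membrane protein of the interferon-induced family, at 3707, 4847 and 4098 CPM in basophils, against 171, 105.3 and 76.67 CPM in all other cells (log2 fold 5.17, SE 0.27, edgeR adjusted p = 8.06e-78). Its relative Ifitm3 was lower, at 45.1, 35.64 and 52.54 CPM, against 327.7, 330.4 and 144.4 CPM in all other cells (log2 fold -2.65, SE 0.42, edgeR adjusted p = 6.08e-09). Among 11 survival genes, 2 were higher, Pim1 (log2 fold 1.80, SE 0.24, edgeR adjusted p = 1.96e-12) and Bid (log2 fold 1.01, SE 0.37, edgeR adjusted p = 0.029), and 2 lower, Bcl2 (log2 fold -3.79, SE 0.44, edgeR adjusted p = 1.81e-16) and Mcl1 (log2 fold -0.97, SE 0.25, edgeR adjusted p = 0.000862). Bid missed the threshold under most alternatives, with adjusted p up to 0.451. Only 2 proliferation genes could be tested, and neither passed.

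Outside the lists, the genes with the highest folds at 100 CPM or more were Htr1b, Far2, Fam110c, Csrp3, Lama5, Cyp11a1, Dnase2b, Alox15, Slc6a9 and Npl. Cyp11a1, the enzyme that starts steroid synthesis from cholesterol, was at 1669, 1354 and 1655 CPM in basophils, against 1.01, 0.593 and 0.522 CPM in all other cells (log2 fold 11.04, SE 0.34, edgeR adjusted p = 3.28e-218). It was found in 82 of 85 basophils, and basophils held 88.0% of its 577 UMIs. Alox15, a lipoxygenase, was at 664.2, 570.2 and 577.9 CPM in basophils, against 0.859, 0.27 and 0 CPM in all other cells (log2 fold 10.47, SE 0.41, edgeR adjusted p = 1.08e-126). Htr1b, a serotonin receptor, was at 209.1, 249.5 and 210.2 CPM in basophils, against 0.0881, 0 and 0.0435 CPM in all other cells (log2 fold 11.78, SE 0.92, edgeR adjusted p = 1.87e-35).

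Other genes of that set had few UMIs outside basophils. Csrp3, a muscle LIM protein, was at 274.7, 213.8 and 262.7 CPM in basophils, against 0.198, 0 and 0 CPM in all other cells (log2 fold 11.40, SE 0.81, edgeR adjusted p = 3.12e-42). Far2, which makes fatty alcohols, had 40 UMIs in basophils and 3 in all other cells, a pooled ratio of 3740 (exact 95% interval 1190 to 18900). Lama5, a laminin chain, had 21 and 2 UMIs, a pooled ratio of 2940 (exact 95% interval 720 to 25900). The 6 lowest genes, Mpeg1, Fcer2a, Btla, Spib, Plbd1 and Snn, had no UMI in basophils and were at least 25.7-fold to 63.4-fold lower. Fcer2a encodes the low-affinity IgE receptor CD23, which was at 399.1, 757.7 and 918.8 CPM in all other cells.

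Neutrophils were the nearest circulating granulocyte in the libraries. They were gated by 4 or more UMIs of Csf3r, Cxcr2, Retnlg, Mmp9 and Mmp8 under the same limits, which gave 1937 cells with a median of 2589 to 2798 UMIs per library. The test called 45.8% of 6204 genes, with 1310 (21.1%) higher and 1532 (24.7%) lower in basophils. Scaled by plain UMI totals in place of TMM, the median log2 fold of all genes moved to 0.73, against -0.04 in the main scaling, and the counts became 2575 higher and 815 lower. CPM values are on plain totals while log2 folds are on the TMM scale, so a gene can be higher in CPM with a fold below 0, and directions of small differences depend on the scaling here.

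**Figure D3:**
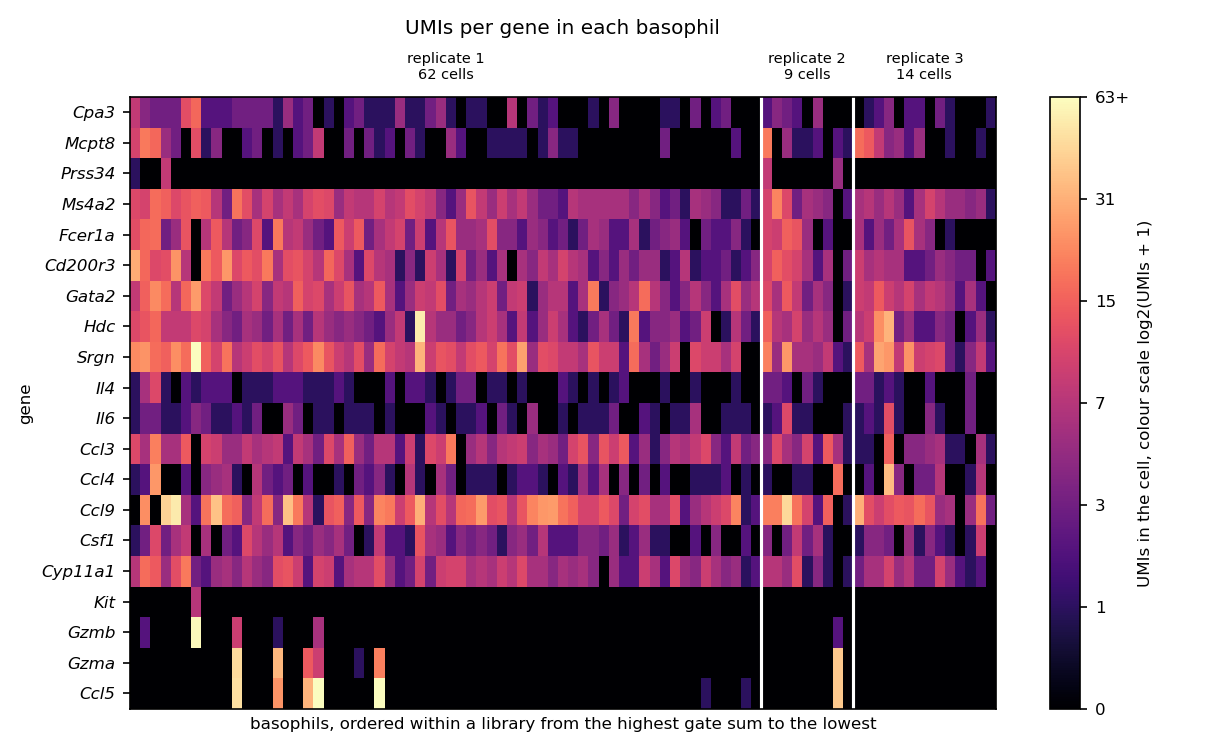
UMIs per gene (rows) in each of the 85 basophils (columns), grouped by library and ordered within it from the highest gate sum to the lowest, on a log2(UMIs + 1) colour scale. Ms4a2, Gata2, Srgn and Cyp11a1 fill most columns, Mcpt8, Cpa3, Il4 and Il6 are patchy, and Kit, Gzmb, Gzma and Ccl5 sit in a few cells.

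Several genes high in basophils had few or no UMIs in neutrophils. Gata2 had 3 UMIs in neutrophils and a pooled ratio of basophils to neutrophils of 3730 (exact 95% interval 1270 to 18100). Il4 had 2 UMIs in neutrophils, a pooled ratio of 842 (exact 95% interval 227 to 7050), and Il6 had none, so that basophils were at least 689-fold higher. C3ar1, Hrh4 and Cyp11a1 had no UMI in neutrophils, where basophils were at least 1680-fold, 973-fold and 2940-fold higher. Il3ra, at 295.2, 178.2 and 394 CPM in basophils, was at 4.26, 4.18 and 3.31 CPM in neutrophils (log2 fold 5.35, SE 0.44, edgeR adjusted p = 1.21e-12). Cdh1, which encodes E-cadherin, was at 1050, 1034 and 1208 CPM in basophils and had 2 UMIs in neutrophils, a pooled ratio of 2870 (exact 95% interval 789 to 23800).

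Against neutrophils the granule contents list counted 5 higher and 1 lower of 7 tested, with a median log2 fold of 2.41. The higher genes included Gzmb, of whose 80 basophil UMIs 60 lay in 1 cell and 18 in the 6 cells with NK cell transcripts. Hdc was at 1566, 2067 and 2574 CPM in basophils, against 497.5, 569.3 and 522.1 CPM in neutrophils (log2 fold 1.12, SE 0.16, edgeR adjusted p = 4.05e-07). Neutrophils thus held Hdc at a level between those of basophils and monocytes. Srgn was lower in basophils, at 3137, 2780 and 4019 CPM, against 4717, 4509 and 4907 CPM in neutrophils (log2 fold -1.32, SE 0.15, edgeR adjusted p = 2.35e-09). Alox5 was at 635.5, 748.4 and 630.5 CPM in basophils, against 435.6, 388.6 and 440.4 CPM in neutrophils. It did not pass on the TMM scale (log2 fold -0.16, SE 0.18, edgeR adjusted p = 0.507) and was higher in basophils with plain totals (log2 fold 0.63, edgeR adjusted p = 0.00462). Fcer1g was lower (log2 fold -0.82, SE 0.15, edgeR adjusted p = 2.59e-05), but with plain totals its log2 fold was -0.02 (edgeR adjusted p = 0.923).

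By list, cytokines and chemokines counted 8 higher and 1 lower of 11 tested against neutrophils, and lineage factors 17 higher and 7 lower of 27. Of all genes tested against neutrophils, 21.1% were higher and 24.7% lower, so the 25.9% of lineage factors that were lower lay near that share. Cytokine receptors counted 9 higher and 11 lower of 23, paired receptors 6 and 12 of 19, and lipid mediator and small-molecule receptor genes 7 and 8 of 18. Immediate early genes counted none higher and 12 lower of 13, and 1 and 11 with plain totals. IgE receptor signalling counted 9 higher and 16 lower of 27, and 10 and 9 with plain totals, with Lat2 the furthest up among its named genes, at 1324, 1034 and 1681 CPM in basophils against 14.2, 9.40 and 8.83 CPM in neutrophils (log2 fold 6.02, SE 0.24, edgeR adjusted p = 4.32e-21). S100a8, S100a9, Camp, Ngp and Ltf, the neutrophil markers outside the gate, were all lower in basophils, and the list without gate genes summed to 118.9 to 341.5 CPM in basophils and 112100 to 116300 CPM in neutrophils. Clec4d, Mpeg1, Tnfaip2, Cd300ld and Jaml had no UMI in basophils and were at least 113-fold to 150-fold lower.

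Monocytes, gated by 3 or more Csf1r UMIs, numbered 1572, and their median of 5515 to 7536.5 UMIs per library was above that of basophils. The test called 33.6% of 7125 genes, with 1009 (14.2%) higher and 1385 (19.4%) lower in basophils. Gata2, Gata1, Il6, Hrh4, Htr1b and Cyp11a1 had no UMI in monocytes, where basophils were at least 6860-fold, 256-fold, 1270-fold, 1790-fold, 703-fold and 5410-fold higher. Hdc was at 54.53, 28.28 and 38.85 CPM in monocytes (log2 fold 5.31, SE 0.22, edgeR adjusted p = 3.44e-123). Ccl4, which did not pass against all other cells, was at 537.1, 712.8 and 1629 CPM in basophils and 7.44, 4.71 and 2.59 CPM in monocytes (log2 fold 6.81, SE 0.30, edgeR adjusted p = 6.28e-109).

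Cytokines and chemokines counted 9 higher and 3 lower of 12 tested against monocytes, and cytokine receptors 9 higher and 12 lower of 25. Of all genes tested against monocytes, 14.2% were higher and 19.4% lower. Il1rl1 was at 307.5, 249.5 and 289 CPM in basophils and 1.55, 0 and 1.30 CPM in monocytes (log2 fold 7.66, SE 0.48, edgeR adjusted p = 1.03e-54). Csf2rb was higher as well (log2 fold 3.08, SE 0.20, edgeR adjusted p = 3.47e-53), as was Cebpa, at 340.3, 339.4 and 393.7 CPM in monocytes (log2 fold 1.76, SE 0.20, edgeR adjusted p = 3.09e-17). Fcer1g was lower, with 3213, 2827 and 3415 CPM in monocytes (log2 fold -0.83, SE 0.17, edgeR adjusted p = 3.99e-06). Interferon-stimulated genes counted 1 higher and 11 lower of 15, the higher gene being Ifitm1 (log2 fold 4.46, SE 0.19, edgeR adjusted p = 7.89e-117).

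Basophils varied among themselves most in a few genes. The index used was the mean squared deviation of a cell's UMIs from the count its depth predicts, over that count, within each library, so that Poisson counting noise alone gives 1. Over 796 genes with a mean of at least 1 UMI per basophil in replicate 1, the median index was 1.25, and 83 genes were at 2 or more. Ms4a2 (1.67), Cyp11a1 (1.70) and C3ar1 (1.54) lay above that median and under 2. Mcpt8 reached 4.37, with 37 cells at 0 and a highest count of 19, and Hdc 6.77, with 3 cells at 0 and a highest count of 54. Il4 had an index of 1.68 and Il6 one of 2.09. For the same relative spread the index rises with a gene's level. Il4, with 97 UMIs, and Ms4a2, with 585, therefore cannot be compared by it. In the 62 basophils of replicate 1, Spearman's rho between UMI counts was 0.482 for Hdc with Srgn, 0.321 for Mcpt8 with Il4, 0.048 for Il4 with Il6 and 0.084 for Mcpt8 with Cpa3, values that share each cell's depth and are given as description.

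The highest indices belonged to Ccl5 (30.8), Gzma (16.0) and Gzmb (14.5), singled out after their values were seen. Ccl5 is a chemokine and Gzma a granzyme of T and NK cells. They lay in 6 cells with 17 to 34 UMIs of Ncr1, Klrb1c, Klrd1 and Klre1, NK cell receptor genes of which no other basophil had more than 1. These 6 cells, 5 in replicate 1 and 1 in replicate 2, held 351 of 353 Ccl5 UMIs and 161 of 162 Gzma UMIs, had 2453 to 9390 UMIs, and 4 were called doublets by Scrublet. The cell in replicate 2 met the gate by 2 Mcpt8 and 5 Prss34 UMIs and had no Ms4a2, Fcer1a, Cd200r3, Gata2 or Hdc.

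A further cell of replicate 1, also called a doublet, had 9368 UMIs with 26 of Gata2, 16 of Cpa3, 15 of Ms4a2 and 12 of Mcpt8 but none of Fcer1a or Cd200r3. It held all 7 Kit UMIs, 5 of Cd34, 76 of Srgn and 60 of Gzmb. Without these 7 cells 78 basophils remained, and 857 genes were higher and 1125 lower than in all other cells. Il4, Il6, Gata2, Hdc, C3ar1 and Cyp11a1 passed with and without them.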

How the data were processed

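The authors deposited raw UMI counts per gene and cell barcode for 3 libraries, with cell barcodes and gene identifiers as other files. Per the file headers, counting was done with Cell Ranger 7.1.0. Its genome build and probe set version: not given in the sources used here. Each matrix held 19059 genes. Barcodes with 200 or more genes were gated as stated, with Scrublet doublet calls (scanpy 1.11.5) recorded but not removed. UMIs were summed per library and class, and genes with a mean CPM of 20 or more over the 6 sums were tested with edgeR 4.0.16 (robust quasi-likelihood, TMM, Benjamini-Hochberg adjustment, R 4.3.3, limma 3.58.1). The library was a block, since both classes of a pair come from 1 library; deviations of the paired sums from their class means correlated at 0.107, 0.0394 and 0.0658. The 13 gate genes, or 18 with the neutrophil gate, were left out of counts. SEs are those implied by the fold and its F statistic. The test code was tested on simulated data.

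The members and gene lists were chosen with earlier results of these data known. Genes named were a set of 36 with known roles in basophils, the 3 highest and 3 lowest of each list at 50 CPM or more, and unlisted genes at 100 CPM or more (10 highest and 6 lowest, or 5 each against neutrophils and monocytes) that passed in the same direction in every library; others are said to be singled out. Folds with no UMI on 1 side are bounds at 3 UMIs over the group, and ratios with 1 to 3 UMIs have exact 95% intervals. These intervals pool UMIs over the libraries and treat them as independent, so they leave out the spread between cells and between libraries. Alternatives were other scalings, filters, gates, DESeq2 1.42.0, no block, 1 fit of 6 classes, B cells left out, doublets removed and each library left out. Leaving out 7 atypical cells was added after seeing the data. 1 gene that the rule named is not reported here.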

Additional observations from a re-analysis of the deposited data

How the results depend on the processing

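Replicate 1 held 62 of the 85 basophils and limits most counts. Leaving out each library in turn gave 441 to 806 genes higher and 481 to 850 lower against all other cells, 600 to 1335 and 1016 to 1537 against neutrophils, and 497 to 1087 and 941 to 1342 against monocytes, the lowest always without replicate 1. DESeq2 called 588 higher and 622 lower against all other cells, 819 and 954 against neutrophils, and 647 and 885 against monocytes. Plain totals gave 2575 and 815 against neutrophils, 76.0% of calls being higher against 46.1% with TMM, and 1 fit of 6 classes gave 1087 and 745 against all other cells, 59.3% against 45.6%. Without the replicate block the counts were 1015 and 1139, 1511 and 1659, and 1227 and 1576 in the same order, all within 1.5 times. The mean share of basophils was 0.195% without replicate 1 and 0.272% to 0.387% under the other alternatives. Directions turned for Thy1 in the fit of 6 classes (log2 fold 0.57), for Alox5 (0.63), Rab27a (0.12) and Klf6 (0.072) against neutrophils with plain totals, for Gzmb without replicate 1 (-0.64, against 1.63 and 1.73 without replicates 3 and 2), with doublets removed (-2.14) and without the atypical cells (-3.26), for Gzma, at 0.33 without a call, at a gate sum of 10 or more (-0.95), without the atypical cells (-7.04), without replicate 2 (-0.58), with doublets removed (-0.57), in DESeq2 (-0.58) and with B cells left out (-0.36), and for Ccl5, at -0.73 without a call, in the fit of 6 classes (0.63). Of 99 genes followed against all other cells, 16 lost their call without replicate 1, as did 28 of 94 in the fit of 6 classes. The cause was not tested in any of these. A gene with no UMI among 310021 basophil UMIs may still be present below 3 UMIs.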
